A study of Bos taurus with 6 samples.

Results

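The genes described here are 35 genes of fatty acid oxidation, fatty acid synthesis and lipid droplets, measured in bovine cumulus cells cultured with or without FID. They were taken by gene symbol from a fixed list. Of the 35, 33 had at least 1 probe on the array under their symbol and 31 had a probe bright enough to test, among 12363 tested genes of the 15229 named on the array. By role the list holds 3 lipases, 3 perilipins of the droplet coat, 5 acyl-CoA synthetases, 8 genes of mitochondrial oxidation, 8 of synthesis, 3 fatty acid binding proteins and 5 regulators. LPL (lipoprotein lipase) and HADHA (the partner subunit of HADHB) had no probe under their symbols and are not analysed here.

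Cumulus cells are the somatic cells that surround the oocyte, and they came from cumulus-oocyte complexes of slaughterhouse ovaries of Holstein cows. The maturation medium of the FID group held forskolin at 100 µM, which activates adenylyl cyclase, and the phosphodiesterase inhibitors IBMX at 500 µM and dipyridamole at 50 µM, and the control group received no added compound. Estradiol, serum and pyruvate were in the medium of both groups. The labels name the control with 6 h but state a culture of 22 to 24 h for both groups, so a difference in time in culture and the effect of FID cannot be told apart. RNA of both groups was amplified, labelled with Cy3 or Cy5 and hybridised together on 2-colour arrays, as 3 biological replicates numbered 1, 2 and 4, each on a pair of arrays with the dyes exchanged, or 6 arrays in all. The p-values measure the spread between these 3 replicates. In such bulk RNA, fewer cells of a type and less RNA per cell cannot be told apart.

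As background, cells store fatty acids as triglyceride in lipid droplets coated by perilipins. In adipocytes, cyclic AMP acts through protein kinase A on perilipins and on the lipases ATGL (encoded by PNPLA2) and HSL (encoded by LIPE) to release fatty acids. Released or imported fatty acids are activated by acyl-CoA synthetases, carried into mitochondria by the carnitine shuttle (the CPT genes) and shortened by acyl-CoA dehydrogenases (the ACAD genes) and the trifunctional protein (HADHA and HADHB). New fatty acids are built in the cytosol from citrate by ACLY, ACACA and FASN, and are then elongated and desaturated by the ELOVL, SCD and FADS enzymes. Oxidation of fatty acids in the cumulus-oocyte complex has been studied for its part in meiotic maturation.

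Each value is either a level or a ratio. A level is the normalized log2 intensity of 1 probe in 1 group, averaged over the dye pair of a replicate, and is never set against the level of another probe. A ratio is the log2 ratio of FID over control, above 0 where the probe was brighter in FID, and is printed as the mean of the 3 replicates ± SE with limma's adjusted p. A gene passed the test where its p, adjusted by Benjamini-Hochberg over all 32124 tested probes, was under 0.05. The median raw intensity of an array lay between 173 and 294 in its FID channel and between 143 and 255 in its control channel. Between 51.2% and 86.7% of the probes of a channel exceeded background. Over all tested genes 292 passed, 132 higher and 160 lower in FID (118 and 271 with median centring of the arrays), with a median ratio of 0.01. In limma the count of 292 was 0 without replicate 1, without replicate 2 and without replicate 4, with 1152 to 1389 genes higher and 1275 to 1877 lower at an unadjusted p under 0.05. Replicate 2 stood apart in its oocyte markers, which had a median ratio of 3.50 there.

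None of the 31 tested lipid genes passed the test, against 2.36% of all tested genes, and the smallest adjusted p was 0.0644 (PNPLA2). At an unadjusted p under 0.05 in limma, 5 were higher in FID, 16.1% of the 31 against 12.5% of all tested genes. At the same level 9 were lower, 29.0% against 16.1% of all tested genes. ACACA, among the 9, entered the test through the control arrays alone. Over the 29 genes above background on at least 4 arrays in each group, a count added after the data were seen, 8 were lower (27.6%, against 16.8% of all genes so measured). With any 1 replicate left out the count of higher genes was 3 (9.68%, against 9.32% to 11.2% of all tested genes), and without replicate 2 the count of lower genes was 4 (12.9%, against 10.3%). Those shares were near the background. The ratio was above 0 in all 3 replicates for 8 genes (25.8%, against 25.0% of all tested genes) and below 0 in all 3 for 12 (38.7%, against 25.0%). When all 6 arrays were fitted singly, with the dye as a term and a random block for each replicate, 3 were called higher (9.68%, against 8.83% of all tested genes) and 7 lower (22.6%, against 11.9%). That fit counts both arrays of a dye pair, so it is an alternative to the test above and not further support for it. The 10 genes it called were PNPLA2, PLIN3 and PPARD as higher, and PLIN2, CPT2, ACADM, HADHB, ACLY, ELOVL6 and FABP5 as lower.

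**Figure D1:**
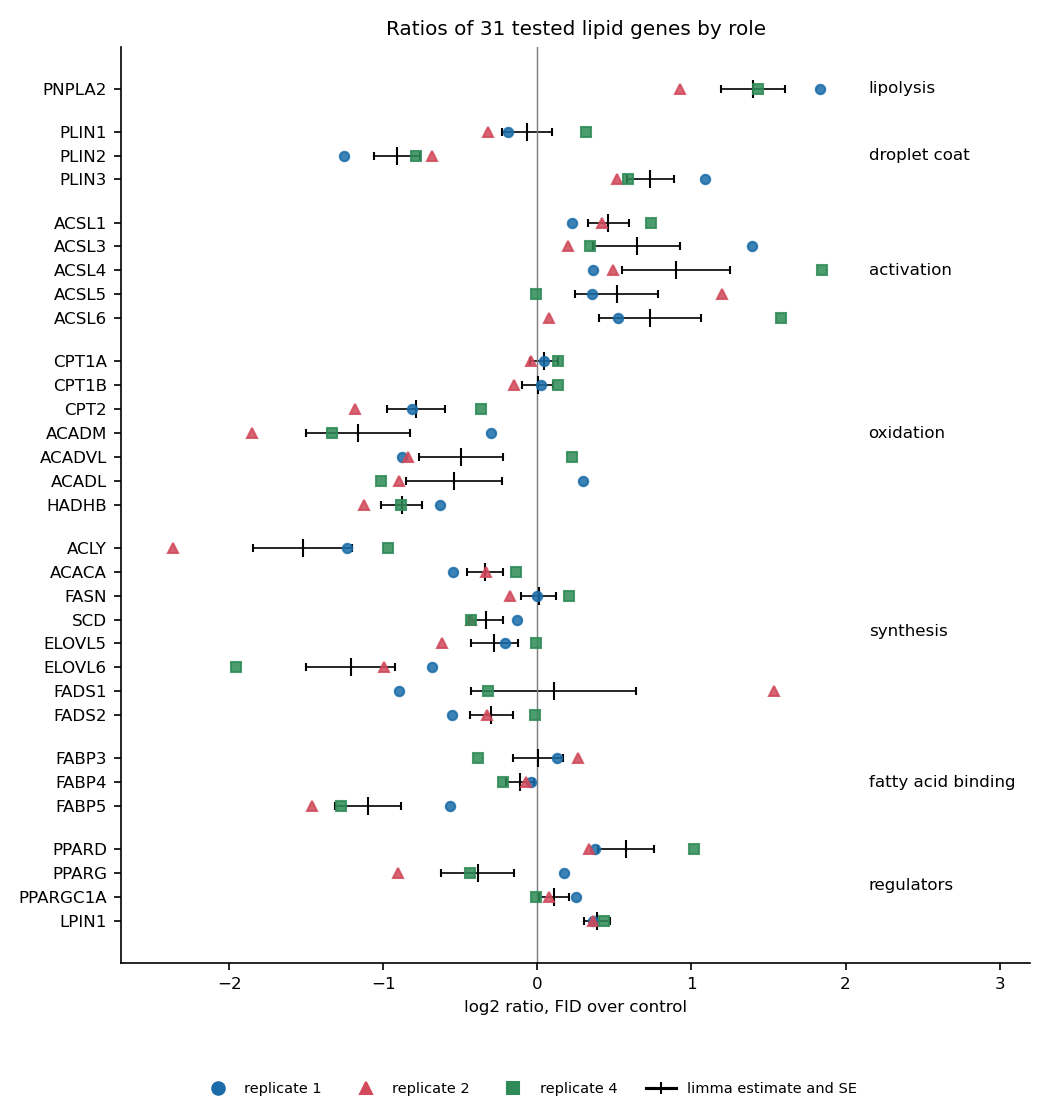
Log2 ratio of FID over control (x axis) for the 31 tested lipid genes, grouped by role, with a marker for each of replicates 1, 2 and 4 and limma's estimate with its SE as a vertical tick with bars. PNPLA2 had the highest estimate, 1.40, and ACLY the lowest, -1.52. All 5 acyl-CoA synthetases (labelled activation) lay above 0 on their brightest probes, though other ACSL3 probes lay below 0.

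Among the listed genes, the comparison of lipolysis, oxidation and synthesis set 1 tested lipase gene above 0 and most oxidation and synthesis genes below 0. PNPLA2 had a ratio of 1.40. The 7 oxidation genes had a median of -0.54 and ranged from -1.16 (ACADM) to 0.04 (CPT1A), with 5 of 7 below 0. The 8 synthesis genes had a median of -0.32 and ranged from -1.52 (ACLY) to 0.11 (FADS1), with 6 of 8 below 0. The ranges of oxidation and synthesis overlapped, and over all tested genes 48.6% had a ratio below 0. In replicates 1, 2 and 4 the oxidation median was -0.30, -0.90 and -0.37 and the synthesis median -0.55, -0.38 and -0.23, so both medians were below 0 in each replicate, with no fixed order between them. The ratio of PNPLA2 lay above that of every oxidation gene in each replicate, and above that of every synthesis gene in replicates 1 and 4, while in replicate 2 FADS1 was higher, at 1.54 against 0.92. Differences between the roles were not tested, because genes are not replicates of a condition.

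**Figure D2:**
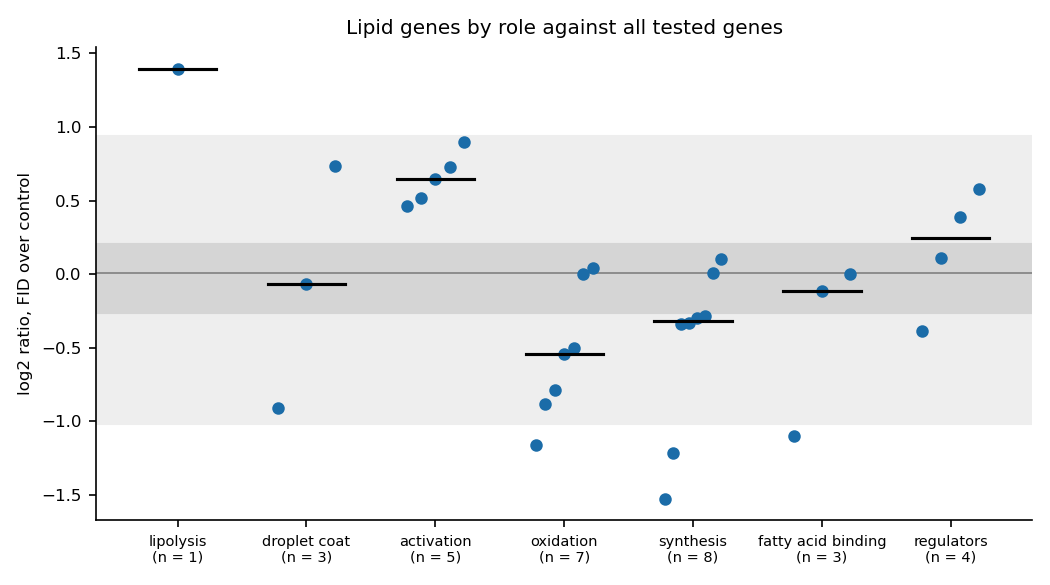
Log2 ratio of FID over control (y axis) of each tested lipid gene by role, with the role's median as a bar, over bands from the 25th to the 75th percentile (dark, -0.26 to 0.21) and from the 5th to the 95th (light, -1.02 to 0.94) of all tested genes. PNPLA2, the only tested lipase of the listed genes, lay above the light band, and ACADM, ACLY, ELOVL6 and FABP5 lay below it.

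PNPLA2, which encodes the lipase that takes the first fatty acid from a triglyceride, was brighter in FID in every replicate. Its level was 11.63, 10.47 and 10.98 in FID and 9.80, 9.55 and 9.55 in control (replicates 1, 2 and 4). The levels of the groups did not overlap, and FID was higher on 6 of 6 arrays. The ratio was 1.40 ± 0.21 (adjusted p = 0.0644), or 2.63-fold, and 1.84, 0.92 and 1.43 by replicate, so the estimate was larger than the spread between replicates but did not pass over all probes (block fit adjusted p = 0.00243). Among the 8412 genes above background in both groups on all 6 arrays, where fewer probes are tested, PNPLA2 passed with the same ratio (adjusted p = 0.0479). Its other probe exceeded background on 2 arrays in FID and 1 in control and was not tested. LIPE, the gene of hormone-sensitive lipase, exceeded background on 1 of 6 arrays in FID and was not well above background on any in control, so no ratio is given for it.

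Genes around PNPLA2 in the droplet list were named for their role after their values were seen. ABHD5 and G0S2 had ratios near 0. ABHD5, the coactivator of ATGL, had -0.08 ± 0.10 (adjusted p = 0.716) on its brightest probe and 0.18 ± 0.27 on its other tested probe. On the arrays with FID in Cy5 alone, its brightest probe had 0.25. G0S2, an inhibitor of ATGL, had -0.07 ± 0.10 (adjusted p = 0.778), and 0.0060 without replicate 2. Both were dim, with G0S2 above background on 4 arrays in FID and 5 in control. HILPDA, another inhibitor of ATGL, had -0.52 ± 0.16 (adjusted p = 0.160) and was lower in FID on 6 of 6 arrays. Of the further lipase genes in that list, LIPA had -1.05 ± 0.21 (adjusted p = 0.0895) and was lower in FID on 6 of 6 arrays. On their brightest probes MGLL had -0.13 ± 0.09 (adjusted p = 0.513) and PNPLA3 0.02 ± 0.09 (adjusted p = 0.930).

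The 3 perilipin genes differed in direction. PLIN2, the coat protein found on droplets of most cell types, had levels of 13.27, 14.47 and 13.63 in FID and 14.52, 15.15 and 14.42 in control. FID was lower within each replicate and on all 6 arrays, but the groups' levels overlapped because replicate 2 was bright in both. Its ratio was -0.91 ± 0.15 (adjusted p = 0.0727), 1.88-fold lower in FID, with -1.25, -0.69 and -0.79 by replicate (block fit adjusted p = 0.00681). PLIN3, which moves from the cytosol to young droplets, went the other way. Its levels were 8.60, 8.13 and 8.07 in FID and 7.51, 7.61 and 7.48 in control. Its groups did not overlap, and FID was higher on 6 of 6 arrays. The ratio of PLIN3 was 0.73 ± 0.15 (adjusted p = 0.0968), with 1.09, 0.52 and 0.59 by replicate (block fit adjusted p = 0.0174). PLIN1, the perilipin of adipocytes, had -0.07 ± 0.16 (adjusted p = 0.875), with replicates on both sides of 0 at -0.19, -0.32 and 0.31.

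**Figure D3:**
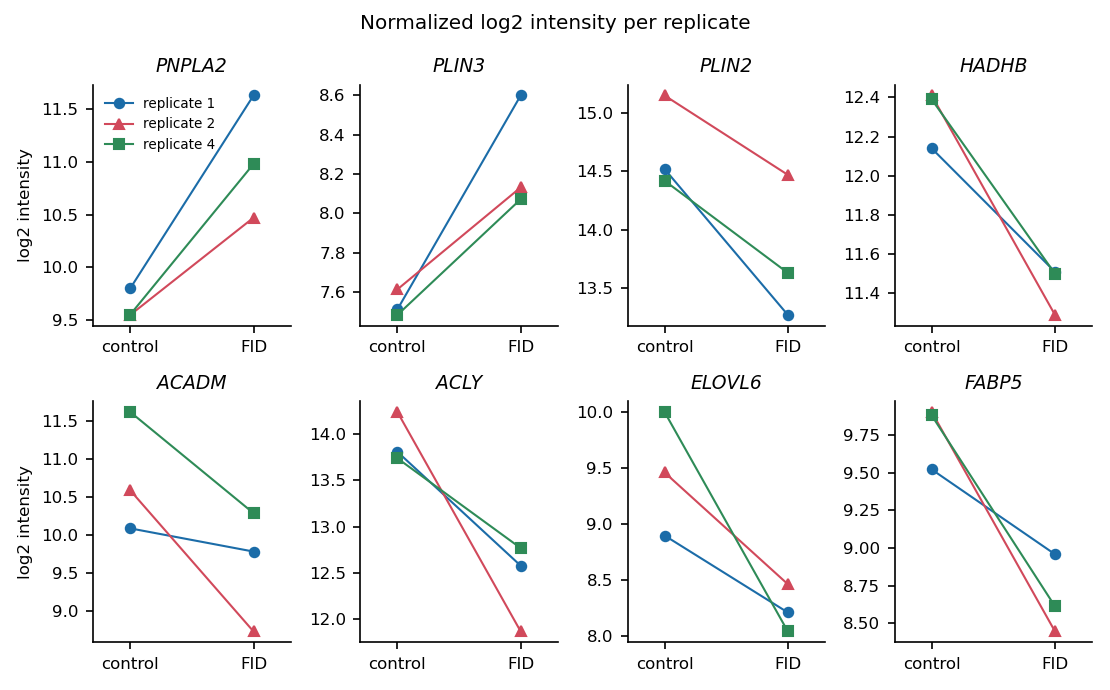
Normalized log2 intensity (y axis, a separate range for each gene) in control and FID for 8 lipid genes, with a line joining the groups of each replicate. Every line runs upward from control to FID for PNPLA2 and PLIN3 and downward for the other 6, and the groups' levels overlap for PLIN2 and ACADM because the replicates differ in level.

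All 5 acyl-CoA synthetase genes, whose enzymes activate long-chain fatty acids for oxidation or for storage, had positive ratios on their brightest probes, and none passed. Their median was 0.64, with 0.36, 0.42 and 0.74 in replicates 1, 2 and 4. That median is the ratio of the brightest ACSL3 probe, and the other ACSL3 probes had -1.14 and -0.07. The shared direction thus holds for the brightest probes only. ACSL4, whose enzyme prefers polyunsaturated fatty acids, had 0.90 ± 0.35 (adjusted p = 0.246), at 0.36, 0.49 and 1.85 by replicate. ACSL6 had 0.73 ± 0.33 (adjusted p = 0.303), at 0.52, 0.08 and 1.58. For both, most of the estimate came from replicate 4. ACSL1, which serves oxidation and storage in many tissues, had 0.46 ± 0.14 (adjusted p = 0.158), was higher in FID on 6 of 6 arrays and was the only synthetase whose brightest probe had an unadjusted p under 0.05. ACSL5 had 0.52 ± 0.27 (adjusted p = 0.361), at 0.36, 1.20 and -0.01, so replicate 4 did not share the direction. Its other probe exceeded background on 3 arrays in each group and was not tested.

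For ACSL3, a synthetase of the endoplasmic reticulum and of young droplets, the direction depended on the probe. The brightest of its 3 probes had levels of 11.36, 10.61 and 10.74 in FID and 9.97, 10.41 and 10.40 in control. Its ratio was 0.64 ± 0.28 (adjusted p = 0.289), at 1.39, 0.20 and 0.34. Another probe had -1.14 ± 0.19 (adjusted p = 0.0716), at -0.72, -1.19 and -1.51, and was lower in FID on 6 of 6 arrays. The third had -0.07 ± 0.16. All 3 exceeded background on every array, so no single direction can be given for ACSL3, and the median over its probes was -0.07. Which transcripts each probe binds was not tested.

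**Figure D4:**
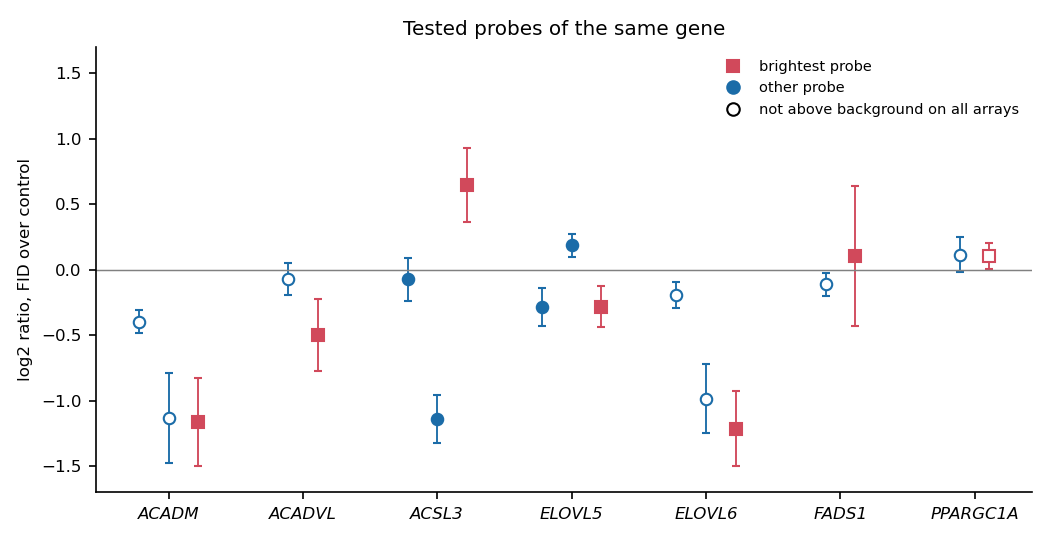
Log2 ratio of FID over control with SE (y axis) for each tested probe of the 7 lipid genes with more than 1, the brightest as a square and the rest as circles, open where a probe was not above background on all arrays. Probes lay on opposite sides of 0 for ACSL3, ELOVL5 and FADS1, and on the same side for ACADM, ACADVL, ELOVL6 and PPARGC1A.

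Among the listed oxidation genes, the CPT1 genes, measured on dim probes, had ratios near 0 and those of later steps had ratios below 0. Further oxidation genes, described below, lay on both sides, with 8 above 0 and 9 below. CPT1A and CPT1B encode the outer membrane enzyme that commits fatty acids to mitochondria, and their ratios were 0.04 ± 0.09 (adjusted p = 0.849) and 0.00 ± 0.10 (adjusted p = 0.996). Both probes were dim, with CPT1A above background on 5 arrays in FID and 6 in control, and CPT1B on 3 and 4. Ratios of such dim probes lie closer to 0, and the part of brightness in the contrast with later steps was not tested. CPT2, the inner membrane enzyme of the shuttle, had levels of 9.14, 8.85 and 9.16 in FID and 9.95, 10.03 and 9.53 in control. The groups did not overlap, and FID was lower on 6 of 6 arrays. The ratio of CPT2 was -0.79 ± 0.19 (adjusted p = 0.116), with -0.81, -1.18 and -0.37 by replicate (block fit adjusted p = 0.0219).

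Among the acyl-CoA dehydrogenases, ACADM, the medium-chain enzyme, had the lowest ratio of all oxidation genes. Its level was 9.79, 8.74 and 10.29 in FID and 10.09, 10.59 and 11.62 in control, lower in FID within each replicate but overlapping between groups. The ratio was -1.16 ± 0.34 (adjusted p = 0.155), 2.24-fold lower in FID, at -0.30, -1.85 and -1.33 (block fit adjusted p = 0.0214). Replicate 1 stood apart from replicates 2 and 4 here. Another ACADM probe had -1.13 ± 0.35 (adjusted p = 0.167), at -0.31, -1.16 and -1.93, again nearest to 0 in replicate 1. A dimmer probe, not well above background in FID and above it on 4 arrays in control, was at least 1.21-fold lower in FID (adjusted p = 0.104). It entered the test through the control arrays alone, so it adds no support to the other probes. The bound sets the control mean against the lowest signal above background on each FID array, or the probe's own signal where that was higher.

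The long-chain dehydrogenases were split by replicate. ACADL had -0.54 ± 0.31 (adjusted p = 0.405), at 0.29, -0.90 and -1.01. ACADVL had -0.50 ± 0.27 (adjusted p = 0.379), at -0.88, -0.84 and 0.22, and -0.07 ± 0.12 on its dimmer probe. A different replicate was positive in each, replicate 1 for ACADL and replicate 4 for ACADVL, and neither estimate exceeded the spread between replicates. HADHB, which carries the thiolase activity of the trifunctional protein, had the smallest adjusted p of the oxidation genes, with levels of 11.51, 11.29 and 11.50 in FID and 12.14, 12.41 and 12.39 in control. Its groups did not overlap and FID was lower on 6 of 6 arrays. The ratio of HADHB was -0.88 ± 0.13 (adjusted p = 0.0655), 1.84-fold lower, at -0.63, -1.13 and -0.89 (block fit adjusted p = 0.00447).

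In synthesis, the lowest ratio was that of ACLY, which splits citrate to give cytosolic acetyl-CoA. Its level was 12.58, 11.87 and 12.77 in FID and 13.81, 14.24 and 13.74 in control. The groups did not overlap and FID was lower on 6 of 6 arrays. The ratio was -1.52 ± 0.32 (adjusted p = 0.0967), 2.88-fold lower, with -1.24, -2.37 and -0.97 by replicate (block fit adjusted p = 0.00662). ACACA, the carboxylase that makes malonyl-CoA, had -0.34 ± 0.12 (adjusted p = 0.203), at -0.55, -0.34 and -0.14. It exceeded background on 3 arrays in FID against 6 in control, and ratios of such dim probes lie closer to 0. FASN, the synthase that builds palmitate, had 0.01 ± 0.11 (adjusted p = 0.980), with replicates on both sides of 0. The ratios of these successive enzymes thus ranged from -1.52 to 0.01.

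Among the enzymes that lengthen and desaturate fatty acids, ELOVL6, which elongates palmitate, stood lowest. Its level was 8.21, 8.46 and 8.04 in FID and 8.90, 9.46 and 10.00 in control, with no overlap between groups. The ratio was -1.21 ± 0.29 (adjusted p = 0.114), 2.32-fold lower, at -0.69, -0.996 and -1.96 (block fit adjusted p = 0.0103). Its other tested probes had the same sign, at -0.98 ± 0.26 and -0.19 ± 0.10, the latter above background on 2 arrays in FID. ELOVL5, an elongase of polyunsaturated fatty acids, had -0.28 ± 0.15 (adjusted p = 0.378) on its brightest probe, and its other probes had -0.28 ± 0.14 and 0.19 ± 0.09. SCD, the desaturase that makes oleate, had -0.33 ± 0.11 (adjusted p = 0.190) at very bright levels of 14.80 to 15.14 in FID and 15.23 to 15.27 in control. FID was lower on 5 of 6 arrays. Its probe was saturated in control on 2 arrays, where the control intensity is capped and the ratio is a lower limit of the size of the difference.

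The FADS genes encode the desaturases of polyunsaturated fatty acids, and FADS1 had the largest SE of the 31 genes. FADS1 had 0.11 ± 0.53 (adjusted p = 0.945), at -0.90, 1.54 and -0.32, with levels of 10.89, 11.92 and 10.70 in FID and 11.79, 10.38 and 11.02 in control. Its sign rested on replicate 2, and without that replicate the ratio was -0.61. Its other probe had -0.11 ± 0.09. FADS2 had -0.30 ± 0.14 (adjusted p = 0.314), below 0 in all 3 replicates at -0.56, -0.32 and -0.02.

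Of the fatty acid binding proteins, which carry fatty acids through the cytosol, FABP5, the epidermal type, had a low ratio while FABP3 and FABP4 were near 0. FABP5 had levels of 8.96, 8.44 and 8.61 in FID and 9.52, 9.91 and 9.88 in control. The groups did not overlap and FID was lower on 6 of 6 arrays. Its ratio was -1.10 ± 0.21 (adjusted p = 0.0880), 2.14-fold lower, at -0.57, -1.46 and -1.27 (block fit adjusted p = 0.0172). FABP3, the heart type, had 0.00 ± 0.16 (adjusted p = 0.996) and FABP4, the adipocyte type, had -0.11 ± 0.09 (adjusted p = 0.562). The levels of both overlapped between the groups.

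Among the regulators, PPARD and LPIN1 had positive ratios. PPARD, a nuclear receptor for fatty acids, had levels of 10.54, 10.25 and 10.15 in FID and 10.17, 9.91 and 9.13 in control, overlapping between groups but higher in FID on 6 of 6 arrays. Its ratio was 0.58 ± 0.18 (adjusted p = 0.172), at 0.37, 0.34 and 1.02 (block fit adjusted p = 0.0456). LPIN1, a phosphatidate phosphatase that also acts as a coactivator of PPARs, had 0.39 ± 0.08 (adjusted p = 0.102), at 0.36, 0.36 and 0.43. The arrays behind this average differed by dye, since the 3 arrays with FID in Cy5 had 1.00, 1.03 and 0.80 and those with FID in Cy3 had -0.27, -0.31 and 0.06. PPARG, the receptor that drives adipocyte differentiation, had -0.39 ± 0.24 (adjusted p = 0.433), at 0.17, -0.90 and -0.44, with replicates on both sides of 0. PPARGC1A, a coactivator of mitochondrial genes, had 0.11 ± 0.10 (adjusted p = 0.618). PPARA was not well above background on any array in either group.

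In the authors' deposited table of log2 ratios, turned the same way, 31 of the 31 genes had the same sign as in the values above. The largest difference between the authors' deposited table and the values above was 0.10, for ELOVL6.

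Beyond the 35 genes, 85 further genes of the same pathways were listed, of which 81 had a probe and 69 were tested. Only 1 passed, against 2.36% of all tested genes. FITM2, whose protein partitions triglyceride into droplets at the endoplasmic reticulum, fell by 1.07 on the log2 scale (SE 0.11, adjusted p = 0.0491), from levels of 9.02, 8.90 and 9.09 in control to 8.15, 7.75 and 7.91 in FID. It was lower on 6 of 6 arrays, and its other tested probe had -0.36 ± 0.13. The call did not hold without replicate 1 (adjusted p = 0.132), without replicate 2 (0.248), without replicate 4 (0.116), with marked spots kept in the background fit (0.0635), without background subtraction (0.0650), in the authors' deposited table (0.0514) or over the median of its probes (0.0586). Over the 69 genes the median ratio was -0.00, and at an unadjusted p under 0.05 in limma 11 were higher and 11 lower, or 15.9% each, against 12.5% and 16.1% of all tested genes.

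In the further oxidation list, 4 of 17 tested genes were higher (23.5%, against 12.5% of all tested genes) and 2 lower (11.8%, against 16.1%) at an unadjusted p under 0.05. Its highest ratio was that of ECI1, an isomerase for unsaturated fatty acids, at 0.88 ± 0.24 (adjusted p = 0.139) and 0.35 ± 0.15 on its other probe, and its lowest that of DECR1, a reductase of the same branch, at -0.79 ± 0.39 (adjusted p = 0.342). HADH, the short-chain hydroxyacyl-CoA dehydrogenase, was chosen after its values were seen because it acts beside HADHB in the same spiral. It had 0.85 ± 0.17 (adjusted p = 0.0884), with levels of 11.16, 11.58 and 12.11 in FID and 10.64, 10.37 and 11.28 in control. HADH was higher in FID and HADHB lower on 6 of 6 arrays, so these oxidation genes had ratios of opposite sign.

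Of 15 further synthesis genes tested, 3 were higher and 3 lower at an unadjusted p under 0.05, or 20.0% each, against 12.5% and 16.1% of all tested genes. The highest ratio was that of ELOVL4, an elongase of very long chains, at 0.80 ± 0.22 (adjusted p = 0.143), and the lowest that of INSIG2, which retains the SREBP complex in the endoplasmic reticulum, at -1.28 ± 0.37 (adjusted p = 0.152) and -0.36 ± 0.17 on its dimmer probe. ME1, the malic enzyme that supplies NADPH for synthesis, was chosen after its values were seen and had -0.86 ± 0.11 (adjusted p = 0.0568), at -0.69, -0.82 and -1.05.

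In the droplet and lipolysis list, 1 of 19 tested genes was higher (5.26%, against 12.5% of all tested genes) and 5 were lower (26.3%, against 16.1%) at an unadjusted p under 0.05, FITM2 among the latter with the lowest ratio. The highest was that of FITM1, its paralogue, at 0.66 ± 0.21 (adjusted p = 0.177). GPAM, the mitochondrial acyltransferase that starts triglyceride synthesis, was chosen after its values were seen and had -0.89 ± 0.12 (adjusted p = 0.0568). Among 10 tested genes of uptake and binding, 1 was higher and 1 lower, or 10.0% each, against 12.5% and 16.1%. SLC27A1, a fatty acid transport protein, had the highest ratio, 0.88 ± 0.21 (adjusted p = 0.117), and DBI, the acyl-CoA binding protein, the lowest on the brightest probe, -1.10 ± 0.27 (adjusted p = 0.122), with -1.28 ± 0.22 on its other probe. CD36, a fatty acid translocase chosen after its values were seen, depended on the probe. Its brightest had -0.11 ± 0.09 (adjusted p = 0.557), and 0.051 on the arrays with FID in Cy3 alone. Its other probes, also above background on every array, had -2.22 ± 0.46 (adjusted p = 0.0954) and -1.11 ± 0.23 (adjusted p = 0.0973), both lower in FID on 6 of 6 arrays. Among 8 further regulators, 2 were higher (25.0%, against 12.5%) and 0 lower (against 16.1%) in limma at that level. NRIP1, a corepressor of metabolic genes, had the highest ratio, 1.18 ± 0.23 (adjusted p = 0.0887), and -0.10 ± 0.08 on its dimmer probe. ESRRA, a nuclear receptor of mitochondrial genes, had the lowest, -0.26 ± 0.10 (adjusted p = 0.229), but 0.092 on the arrays with FID in Cy5 alone.

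Marker genes of the cells in the sample were read beside these values. Of 12 markers of cumulus and granulosa cells, 11 exceeded background, all except FOXL2, with a median ratio of 0.14 and a summed intensity per array of 105000 to 134900 in FID and 105600 to 144900 in control. Single markers lay far to either side, from KRT8 at -2.36 and KRT18 at -1.76, both keratins, to NR5A2, a nuclear receptor, at 1.22 and AMH, anti-Müllerian hormone, at 1.71. At an unadjusted p under 0.05 in limma, 4 were lower (36.4%, against 16.1% of all tested genes) and 2 higher (18.2%, against 12.5%). Spots of INHBA were saturated on 4 FID and 1 control channels and spots of INHA on 2 FID channels, so the sums are capped and do not show that these markers were stable. All 14 oocyte markers exceeded background and had positive ratios, against 6360 of all 12363 tested genes. None passed the test, and 3 were higher at an unadjusted p under 0.05 in limma (21.4%, against 12.5% of all tested genes). The median over the 14 was 1.63 and split as 1.28, 3.50 and 0.12 over replicates 1, 2 and 4. Their summed intensity was 2084 to 57030 in FID and 1778 to 7226 in control. Replicate 2, which had the highest oocyte markers, was also the replicate with the highest FADS1 and ACSL5 ratios. It had the lowest PNPLA2, ACLY, ACADM, CPT2, HADHB and FABP5 ratios. These genes were named after their values were seen, with no count over all genes, and others differed. PLIN2 had its least negative ratio in replicate 2 (-0.69). ELOVL6 and another ACADM probe were lowest in replicate 4, at -1.96 and -1.93. Without replicate 2, PNPLA2 had a ratio of 1.63, the oxidation median was -0.36 and the synthesis median -0.315. The part of oocyte RNA in these values was not tested.

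Markers of theca and stroma were lower in FID in sum, at 10670 to 17100 against 24880 to 32310 in control, with no overlap. A sum weights bright probes most. Among these was ACTA2, an actin, with levels of 13.12 in FID and 14.18 in control. Its ratio was -1.06 ± 0.30 (adjusted p = 0.151). The theca markers CYP17A1 and INSL3 were dim, with ratios of -0.03 and 0.03, so the sum does not speak for the whole list. Over the 10 markers the median ratio was -0.27, and 3 were above 0, among them COL3A1, a collagen, at 0.29 with 1.71 in replicate 4. Of the 10, 2 passed the test as lower, against 160 of all 12363 tested genes. The receptor PDGFRA fell by 2.09 and the matrix proteoglycan LUM by 1.49 on the log2 scale (adjusted p = 0.0475 and 0.0491). Both were lower on 6 of 6 arrays. Neither call held with any 1 replicate left out, with marked spots kept in the background fit, without background subtraction or in the authors' deposited table. The part of stromal RNA in the lipid gene values was not tested. The 7 tested of 10 markers of blood and immune cells had a median of 0.29, with summed intensities of 2064 to 5211 in FID and 1606 to 3202 in control. The 4 tested of 6 endothelial markers had a median of 0.15. Of 5 adipocyte markers 3 were tested, with a median of -0.07, and ADIPOQ and CFD were not above background on enough arrays to test.

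**Figure D5:**
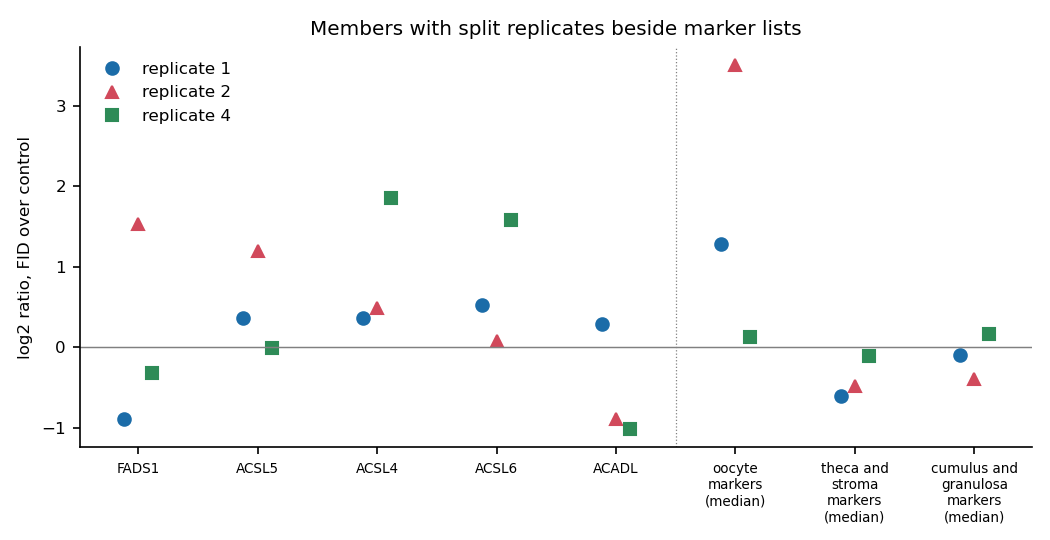
Log2 ratio of FID over control (y axis) in replicates 1, 2 and 4 for 5 lipid genes. Medians of 3 lists of cell type markers are shown beside them. The 5 genes are chosen examples of replicates that lay far apart. ACADM (-1.85 to -0.30) and ACLY (-2.37 to -0.97), also far apart, are not shown. The oocyte median of replicate 2, 3.50, lay far above those of replicates 1 and 4, at 1.28 and 0.12, while the theca and stroma medians lay between -0.61 and -0.11.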

How the data were processed

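The authors deposited scanner files with raw spot and local background intensity per channel (532 nm for Cy3, 635 nm for Cy5), per the file headers, and 2 identical tables of log2 ratios (largest difference 0). The scanner software and the authors' normalization are not given in the sources used here. Set against the scanner intensities, the deposited log2 ratios had the direction Cy5 over Cy3 on every array (slopes between 0.961 and 1.01, 5954 bright probes). Their medians were -0.0185 to -0.00285, and their correlation with the present ratios was 0.994 to 0.998. Their centring is otherwise unknown, and they served as an alternative.

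With limma 3.58.1 in R 4.3.3, spots marked to be ignored (13 to 88 per array) were removed, intensities were corrected by normexp (offset 50) and normalized by loess within arrays, with the 1418 control spots at weight 0. Removal before the background fit was chosen in earlier work on these data, after a count of 0 had been seen. Arrays with FID in Cy3 were turned, and dye pairs averaged to 3 ratios per probe, tested against 0 with lmFit and eBayes (2 residual and 1.86 prior degrees of freedom). A probe was tested where it exceeded the 95th percentile of 153 negative control spots on 4 or more of the 6 arrays, counted in FID or counted in control, which left 32124 of 43794 probes. A gene was represented by its brightest tested probe. Probes were named by the platform annotation, in which 21790 had 1 symbol and 22004 none. ECI1 is listed there as DCI and HILPDA as HIG2. The procedure was tested on simulated data, in which changed probes were bright and differed more than any lipid gene here. That test does not show how well smaller differences or dim probes are found. The number of arrays limits the precision, and no slide or scan batch is given in the files, so none was tested.

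All 35 listed genes are named, and of the further lists those past the threshold and the highest and lowest of each list, with other names said to be chosen after their values were seen. Members and lists were chosen with earlier results of these data known. No promoter, protein or probe sequences were at hand, so none are printed and a planned description of promoter motifs was not made.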

Additional observations from a re-analysis of the deposited data

How the results depend on the processing

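Of 16 alternatives, each lipid gene had a value in 15 or 16. The ratio kept its sign in all of these for 22 of 31 genes, and 23 of the 142 values of the other 9 had the opposite sign. The cause of these changes was not tested. With marked spots kept in the background fit, PLIN1 had 0.0058 and FABP3 -0.049, and without background subtraction CPT1B had -0.0017. With median centring FASN had -0.019, FADS1 -0.13 and FABP3 -0.075. On the arrays with FID in Cy5 alone, CPT1B had -0.26, FADS1 -0.18, PLIN1 0.27, FABP3 -0.17, FABP4 0.16, ABHD5 0.25 and ESRRA 0.092, and on those with FID in Cy3 alone CD36 had 0.051, CPT1A had -0.14, FASN -0.22 and LPIN1 -0.17. Without 1 replicate the range was -0.063 to 0.078 for CPT1B, -0.090 to 0.10 for FASN, -0.61 to 0.61 for FADS1, -0.26 to 0.061 for PLIN1, -0.13 to 0.20 for FABP3 and -0.14 to 0.0060 for G0S2. Taking the median over a gene's probes gave -0.074 for ACSL3, -0.0036 for FADS1 and 0.052 for ABHD5.

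The count of lipid genes past the threshold was 0 in the reported fit and 1 among probes above background in both groups on all arrays (PNPLA2, 3.85% of 26, against 6.51% of all genes there). It was 3 with FID in Cy5 only (HADHB, PNPLA2 and LPIN1) and 3 with FID in Cy3 only (PLIN2, PNPLA2 and FABP5), 9.68% each, against 6.67% and 9.34% of all genes, and 10 with the replicate as a random block (32.3%, against 20.7%). The fits with a single dye cannot separate FID from the dye. At an unadjusted p under 0.05, 8 genes were higher with FID in Cy5 only and 8 in the block fit (25.8% each, against 15.2% and 15.7% of all genes), in place of 5, and without 1 replicate there were 3 in each case (9.68%, against 9.32% to 11.2%). Lower genes numbered 4 to 9 without 1 replicate (12.9% to 29.0%, against 10.3% to 15.2%). The medians of oxidation and synthesis stayed below 0 throughout, at -0.36 to -0.86 and -0.28 to -0.43 without 1 replicate, and the lipolysis value was 0.74 with no filter, since LIPE then enters at background level. Over all tested genes, 0 passed in limma with marked spots kept, without background subtraction, with the deposited ratios or without any 1 replicate, with 1152 to 1536 higher and 1275 to 1945 lower at an unadjusted p under 0.05. Against 292 as reported, the count was 389 with median centring, 499 with an offset of 20, 548 above background in both groups, 661 with an intensity trend, 822 and 1152 with FID in Cy5 or in Cy3 only and 2564 in the block fit. Signal near background limited CPT1A, CPT1B and ACACA and left LIPE and PPARA without a test.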
